A study of Mus musculus with 6 samples.

Results

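The 9 genes described here make, move, store and remove retinoids: Bco1, Rbp4, Stra6, Lrat, Rdh10, Aldh1a1, Aldh1a2, Cyp26b1 and Crabp1. They were read with all 11 probe sets that carry 1 of these genes alone, out of 45037 probe sets and 18193 genes measured; Lrat and Rdh10 had 2 probe sets each and the other genes 1. The genes were chosen by their role in the pathway, with the transgenic minus wild-type differences of these same arrays already known, so those differences are given as a description and nothing is rested on them. Their place in the fit across all probe sets is printed for orientation only.

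Testes were taken from 2 groups of adult mice on a C57BL/6 x CBA hybrid background: 3 samples carrying a transgene for a constitutively active mutant of DREAM, and 3 wild-type samples. DREAM, the product of Kcnip3, is a calcium sensor that binds DNA and holds down transcription until calcium releases it. Each testis RNA went onto 1 Affymetrix whole-genome mouse array, and values are log2 intensities after RMA, a background correction and normalization of the array's probes. The promoter of the transgene, the number of founder lines and any pooling of animals are not given in the sources used here. Kcnip3 read 7.15, 7.30 and 7.36 in transgenic testis, against 7.33, 7.11 and 7.18 in wild type with its brighter probe set, and whether that probe set sees the transgene is not known, so it does not check the labels. Wild type replicate 2 lay apart from the other 5 arrays on the first principal component. It was at -42.2, where the others ranged from -5.3 to 23.3. Leaving it out is named beside some of the values that it moved, not beside all. Spermatid genes, which define a testis with ongoing spermatogenesis, were high in all 6 arrays: the mean of 10 of them was 12.62 ± 0.04 in transgenic and 12.65 ± 0.02 in wild-type testis (log2, SD, n = 3 each).

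Vitamin A reaches the testis as retinol on a carrier protein or is released inside cells from beta-carotene, is stored as retinyl ester, and is turned by a pair of oxidation steps into retinoic acid. Retinoic acid binds nuclear receptors and, in the testis, starts the differentiation of spermatogonia and the entry into meiosis, and enzymes of the CYP26 family clear it. Sertoli cells, germ cells and the peritubular wall divide these steps among themselves, so a whole-testis reading sums over all of them. In whole testis, fewer cells of a type and less RNA per cell cannot be told apart.

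Of the 9 genes, Bco1 had the widest gap between the genotypes, lower in transgenic testis; Rbp4 also did not overlap, by a small margin, and the other 7 genes did. The promoter of Bco1 is shown first because its gene carries the widest gap, and that of Crabp1, the gene with the next largest difference, beside it. Both windows come from RefSeq on mouse build GRCm38.p6, from 250 bases before the start of the gene to 50 after it, and 8 of the 9 genes had at least 1 such window (Rdh10 had none in the table used). The Bco1 window is chr8:117095615-117095914 on the plus strand, and its capitals mark a direct repeat of AGGTCA, the core site of many nuclear receptors, with 1 base between the copies, which reads on the opposite strand and begins 56 bases before the start. The Crabp1 window is chr9:54764498-54764797 on the plus strand, and its capitals mark 5 copies of the GC box GGGCGG on either strand.
Bco1: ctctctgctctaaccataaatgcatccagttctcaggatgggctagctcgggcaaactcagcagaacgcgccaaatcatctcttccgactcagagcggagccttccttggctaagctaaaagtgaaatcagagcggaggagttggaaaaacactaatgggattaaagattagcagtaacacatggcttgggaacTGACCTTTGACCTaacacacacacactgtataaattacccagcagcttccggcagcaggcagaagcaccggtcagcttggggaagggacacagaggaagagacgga
Crabp1: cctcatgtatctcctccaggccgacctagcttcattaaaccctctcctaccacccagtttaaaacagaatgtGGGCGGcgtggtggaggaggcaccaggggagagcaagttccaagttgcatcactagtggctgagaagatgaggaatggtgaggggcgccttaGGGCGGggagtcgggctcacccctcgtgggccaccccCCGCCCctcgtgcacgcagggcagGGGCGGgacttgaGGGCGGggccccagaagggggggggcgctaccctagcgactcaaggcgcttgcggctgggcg

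A direct repeat of that core site with 1 base between is known as a binding arrangement of PPAR and RXR heterodimers, and RXR is also the partner of the retinoic acid receptors. Searched on both strands, the full repeat occurred in 13 of 32851 RefSeq promoter windows of this length (0.0396%), and the single AGGTCA in 16.3% of them. Among the 13 windows of the 8 genes, the window of Bco1 was the only one with either motif, and its AGGTCA matches lie inside the repeat. The search for the repeat was made after the Bco1 sequence had been read. GTCA, the core of the element that DREAM binds, had 3 matches in the Bco1 window, 2 of them inside the repeat, but 85.2% of all windows hold at least 1. It was found in the windows of 6 of the 8 genes and in neither that of Cyp26b1 nor that of Crabp1. The TATA box TATAAA was found for Bco1, Rbp4 and Cyp26b1 (13.6% of all windows), and the GC box for Rbp4, Stra6, Lrat, Cyp26b1 and Crabp1 (35.7% of all windows). These matches are letters in a window and say nothing of what binds there.

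Bco1, on chromosome 8, encodes the oxygenase that splits beta-carotene in the middle into retinal and so opens the pathway. It read 7.73, 7.96 and 7.87 (log2) in transgenic testis, against 8.40, 8.59 and 8.47 in wild type. All 3 transgenic arrays lay below all 3 wild-type arrays, with a gap of 0.44 between the nearest, several times the spread within either group. The means were 7.85 ± 0.12 in transgenic and 8.49 ± 0.10 in wild-type testis (SD, n = 3 each), a difference of -0.63 (SE 0.10, 95% interval -0.86 to -0.41), or an intensity 1.55-fold lower in transgenic testis (95% interval 1.33 to 1.81). Its limma adjusted p over all probe sets was 0.0326, rank 165 of 45037. Of the 11 probe sets it was the 1 past the threshold of 0.05, where 0.444% of all probe sets passed in either direction; since the choice of genes followed these results, nothing is read from that share. The direction held with each array left out, at -0.57 to -0.69, but the call was lost without transgenic replicates 1, 2 and 3 (adjusted p = 0.183, 0.117 and 0.166) and without wild type replicates 1 and 3 (0.0548 and 0.174), and was kept without wild type replicate 2 (0.0315).

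A measure of RNA integrity moved with the genotype beside this difference. For the Gapdh control probe sets, the log2 value at the 3' end less that at the 5' end was 0.21, 0.26 and 0.33 in transgenic arrays, against 0.16, 0.06 and 0.11 in wild-type arrays, without overlap (exact permutation p = 0.1, two-sided, the smallest that 3 against 3 allows). The same measure for beta-actin overlapped, at 0.50 ± 0.03 in transgenic and 0.47 ± 0.05 in wild type (SD, n = 3 each). With the Gapdh value of each array as a covariate, Bco1 differed by -0.61 with an SE of 0.20 (limma adjusted p = 0.381), where the SE was 0.10 without it. Since the Gapdh value separated the genotypes, this fit can hardly tell genotype from covariate, and a wider SE follows from that alone. The part of RNA integrity in the Bco1 values was not tested.

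**Figure D1:**
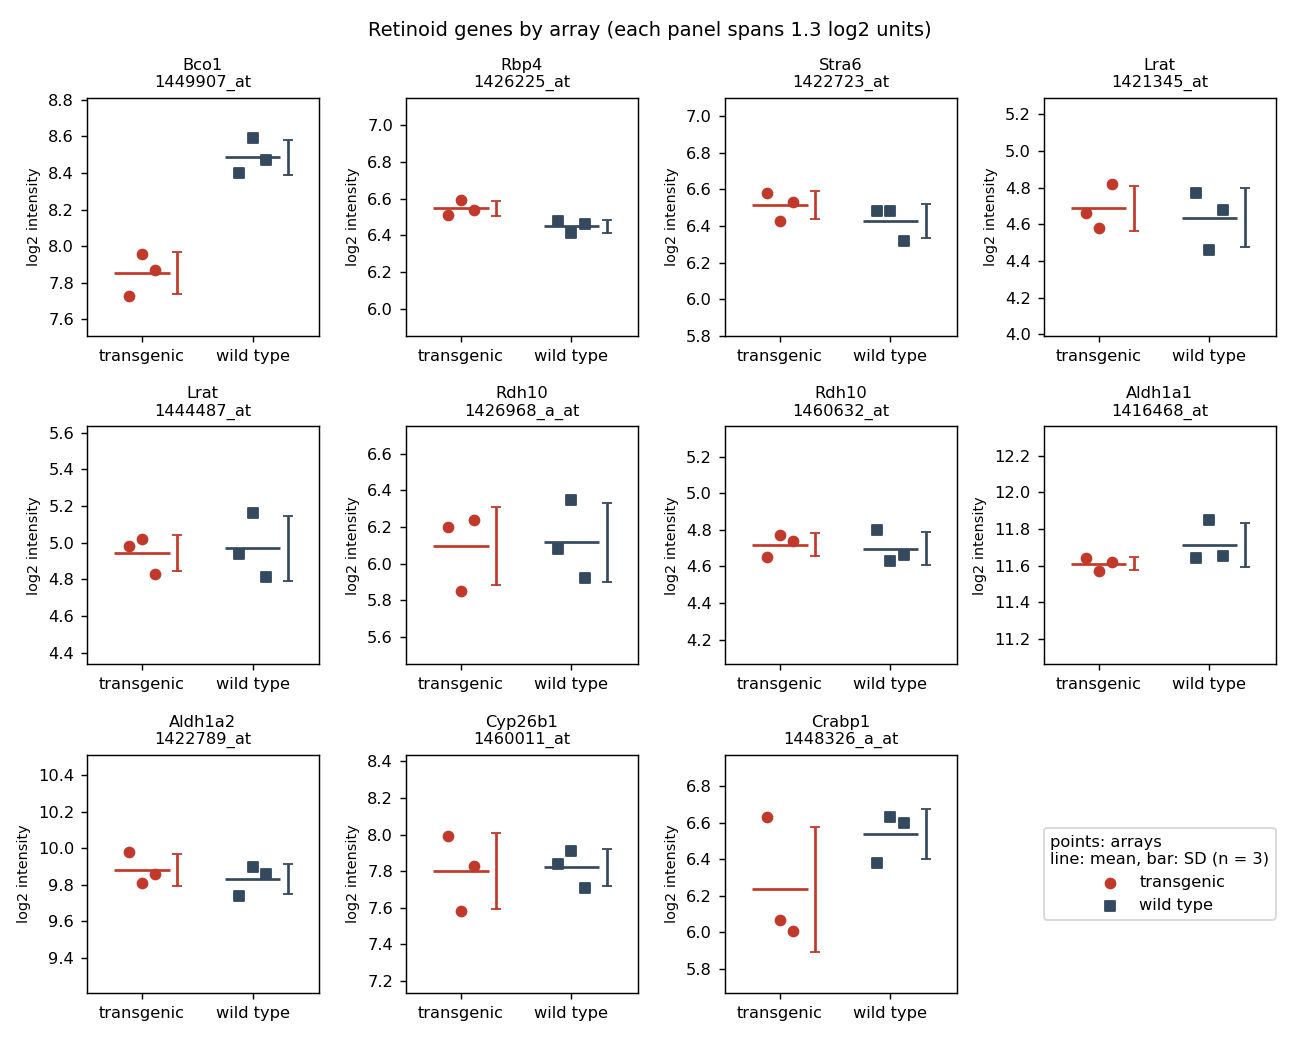
Log2 intensity of each of the 11 probe sets in the 3 transgenic arrays (red circles) and the 3 wild-type arrays (dark squares), with the mean as a line and the SD as a bar; every panel covers the same span on the vertical axis. The Bco1 groups are 0.44 apart, those of Rbp4 0.03, and the other 9 probe sets touch or overlap.

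Of the genes that bring retinol to the cell and into it, neither passed the test. Rbp4, the blood carrier of retinol, read 6.51, 6.59 and 6.54 in transgenic testis, against 6.48, 6.41 and 6.46 in wild type. Its groups did not overlap but lay only 0.03 apart, and the difference was 0.10 (SE 0.08, 95% interval -0.09 to 0.29, limma adjusted p = 0.935). Rbp4 and Bco1 were the 2 of 11 probe sets without overlap, where 11.3% of all probe sets had none. Stra6, the membrane receptor that takes retinol from its carrier, read 6.58, 6.43 and 6.53 in transgenic testis, against 6.48, 6.48 and 6.32 in wild type, with overlap and a difference of 0.09 (SE 0.09, 95% interval -0.12 to 0.30).

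Lrat, which esterifies retinol for storage and holds it in the cell, was dim with both probe sets. The brighter read 4.98, 5.02 and 4.83 in transgenic testis, against 4.94, 5.16 and 4.81 in wild type, a difference of -0.03 (95% interval -0.28 to 0.23). The other differed by 0.05 (95% interval -0.20 to 0.30). Both overlapped between the groups. Both Lrat probe sets and the dimmer one of Rdh10 were among the 40% of probe sets with the lowest mean, where RMA gives no detection call, so a missing difference there is not a statement on the transcript.

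Rdh10, the dehydrogenase that takes retinol to retinal, read 6.20, 5.85 and 6.24 in transgenic testis, against 6.08, 6.35 and 5.92 in wild type with its brighter probe set. The arrays of both groups were scattered over the same range, and the difference was -0.02 (95% interval -0.34 to 0.30). The dimmer probe set differed by 0.02 (95% interval -0.18 to 0.23).

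The retinal dehydrogenases that complete retinoic acid, Aldh1a1 and Aldh1a2, are the products of separate genes on chromosomes 19 and 9. Aldh1a1 read 11.64, 11.57 and 11.62 in transgenic testis, against 11.64, 11.85 and 11.65 in wild type. Wild type replicate 2 was the high one and the other 5 arrays lay within 0.08 of each other. The Aldh1a1 difference was -0.10 (SE 0.09, 95% interval -0.32 to 0.11), and -0.04 without wild type replicate 2. Aldh1a2, which in the mouse testis is best known from germ cells, read 9.98, 9.81 and 9.86 in transgenic testis, against 9.74, 9.90 and 9.86 in wild type, with overlap and a difference of 0.05 (SE 0.09, 95% interval -0.16 to 0.26).

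Among the genes that end or buffer the signal, Cyp26b1, an enzyme that oxidises retinoic acid for removal and keeps it from germ cells of the fetal testis, read 7.99, 7.58 and 7.83 in transgenic testis, against 7.84, 7.91 and 7.71 in wild type. Its transgenic arrays spread around the wild-type ones, and the difference was -0.02 (SE 0.12, 95% interval -0.29 to 0.25). Crabp1, a cytosolic binding protein of retinoic acid that in the mouse testis marks spermatogonia, read 6.63, 6.07 and 6.01 in transgenic testis, against 6.38, 6.63 and 6.60 in wild type. Transgenic replicates 2 and 3 lay below all wild-type arrays, while transgenic replicate 1 equalled the highest of them. Crabp1 had the widest spread of the 11 probe sets, 0.34 in transgenic arrays against 0.14 in wild type (SD, n = 3 each). Its difference was -0.30 (SE 0.16, 95% interval -0.67 to 0.07, limma adjusted p = 0.831). It was -0.50 without transgenic replicate 1 (adjusted p = 0.348), -0.22 without transgenic replicate 2 and -0.19 without transgenic replicate 3 (adjusted p = 0.998 each), and 0.31 with the Gapdh covariate (SE 0.23, adjusted p = 0.64), so its direction depends on that term. Among 9 markers of spermatogonia 5 were above 0 and 4 below, from Zbtb16 at 0.17, whose groups did not overlap, to Lin28a at -0.30, and their part in the Crabp1 values was not tested.

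Over the 9 probe sets of the 7 genes other than Bco1 and Crabp1, the 95% intervals reached at most from -0.34 to 0.30. Differences above 1.27-fold in intensity thus lay outside each of them in this fit. Both dim Lrat probe sets and the dim one of Rdh10 are among the 9, and for these the bound is not one on the transcript. With the Gapdh covariate the same intervals reached from -0.70 to 0.74, or 1.67-fold. Without wild type replicate 2, small differences took the other sign for both Lrat probe sets (0.07 for the brighter, -0.04 for the other), both of Rdh10 (0.10 for the brighter, -0.01 for the other) and that of Cyp26b1 (0.02). Adjusted p over all probe sets ran from 0.831 to 0.993 for the 10 probe sets other than that of Bco1, which does not show that they were equal. Taking each gene at its brightest probe set, 6 genes were below 0 and 3 above, with a median of -0.02, against a median of 0.02 over all genes.

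**Figure D2:**
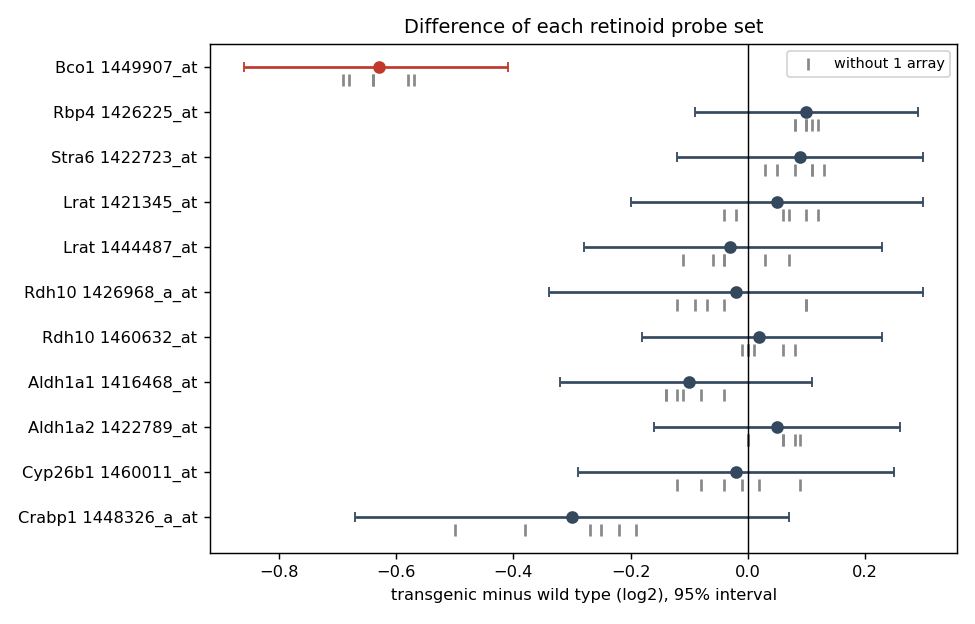
Transgenic minus wild-type difference (log2) of each of the 11 probe sets with its 95% interval; grey ticks give the difference with each of the 6 arrays left out. Bco1 lies between -0.86 and -0.41, and the interval of every other probe set crosses 0.

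The other genes of the pathway were listed by role rather than by how they moved, and 61 of the 71 listed had a probe set of their own. No gene of the 61 passed the test over all probe sets (limma, 0 higher and 0 lower), where 0.616% of all genes did at their brightest probe set. An unadjusted p under 0.05 was reached by 9 of them (14.8%), against 7.48% of all genes. In all, 36 were above 0 and 24 below (59.0% above, against 56.7% of all genes), with a median of 0.04, beside 0.02 over all genes. The lists were written with earlier results of these arrays known, so these shares describe them only.

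Of the 17 oxidoreductases of retinol and retinal 0 passed the test (limma) and 3 had an unadjusted p under 0.05. Above 0 were 14 of them (82.4%, against 56.7% of all genes), with a median of 0.10, and 7 of the 17 were read by dim probe sets. Adh4, an alcohol dehydrogenase that accepts retinol, read 8.18, 8.16 and 8.03 in transgenic testis, against 7.32, 7.80 and 7.40 in wild type. Its groups did not overlap, and the difference was 0.62 (SE 0.13, 95% interval 0.32 to 0.91, adjusted p = 0.124). Rdh9, a dim dehydrogenase gene, differed by 0.33 (SE 0.11, adjusted p = 0.487). In the short list for retinoic acid synthesis, 0 of 4 passed and 1 had an unadjusted p under 0.05. That gene was Aldh1a7, the neighbouring mouse copy of Aldh1a1 on chromosome 19, at 8.94, 8.85 and 8.46 in transgenic testis, against 7.72, 8.31 and 7.76 in wild type. Its groups did not overlap either, with a difference of 0.82 (SE 0.18, 95% interval 0.42 to 1.22, adjusted p = 0.135), where Aldh1a1 itself read -0.10. How far the probes of these related genes see each other's transcripts was not tested, nor whether the Aldh1a7 enzyme makes retinoic acid. Aldh8a1, also of this list, differed by -0.17 (SE 0.09, adjusted p = 0.843).

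Among genes for uptake and carriage, 0 of 9 passed and 2 had an unadjusted p under 0.05, with a median of -0.04. Cd36, a scavenger receptor for fatty acids and carotenoids, read 8.11, 8.01 and 7.84 in transgenic testis, against 7.10, 7.88 and 7.38 in wild type. Wild type replicate 2 overlapped the transgenic arrays, and the difference was 0.53 (SE 0.18, adjusted p = 0.508). Another Cd36 probe set read 7.06, 7.12 and 6.98 in transgenic testis, against 6.59, 6.59 and 6.44 in wild type, without overlap (0.51, SE 0.09, adjusted p = 0.0606), and its dimmest 0.03. Rlbp1, the retinal carrier known from the eye, was read by a dim probe set. It differed by -0.28 (adjusted p = 0.74), and by -0.15 without wild type replicate 2. Of the 7 genes for ester storage and release 0 passed and 1 had an unadjusted p under 0.05. That was Lpl, a lipase that frees retinyl esters from lipoproteins, at 0.41 (SE 0.14, adjusted p = 0.512), while its other probe set read -0.18. Bco2, the relative of Bco1 that cuts carotenoids off centre, differed by -0.12 (SE 0.10, 95% interval -0.36 to 0.11, adjusted p = 0.933).

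Without wild type replicate 2, 3 of the 61 genes passed, where 1.25% of all genes did: Adh4 at 0.76 (adjusted p = 0.00555), Aldh1a7 at 1.01 (0.00773) and Cd36 at 0.75 (0.0202). Adh4 also passed after a further quantile normalization (0.62, adjusted p = 0.0396), where 0.857% of all genes did. With array weights 10 of the 61 passed, where 10.1% of all genes did, among them Adh4 (0.72, adjusted p = 0.000349), Aldh1a7 (0.99, 0.000427) and Cd36 (0.61, 0.00419).

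Of the 3 genes that bind or clear retinoic acid 0 passed and 0 had an unadjusted p under 0.05, with Fabp5 at -0.22 and Crabp2 at -0.02 (adjusted p = 0.947 and 0.994), which were 0.03 and -0.17 without wild type replicate 2. Receptors and coregulators had 0 of 11 past the test and 2 at an unadjusted p under 0.05, with a median of -0.01. Rara, a retinoic acid receptor that mouse spermatogenesis needs, differed by -0.23 (SE 0.10, adjusted p = 0.698). Rarb, a receptor gene that retinoic acid itself induces, was read by a dim probe set and differed by 0.25 (SE 0.09, adjusted p = 0.612). Genes that respond to retinoic acid had 0 of 10 past the test and 0 at an unadjusted p under 0.05, with a median of 0.01. The 2 of smallest p there were Rarres2 at -0.26 and Kit at -0.12 (adjusted p = 0.802 and 0.935). Stra8, the gene by which retinoic acid starts meiosis and the usual readout of its action in testis, was named for that role after its value was seen, at 0.04 (SE 0.11, 95% interval -0.21 to 0.30), and at 0.14 without wild type replicate 2.

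**Figure D3:**
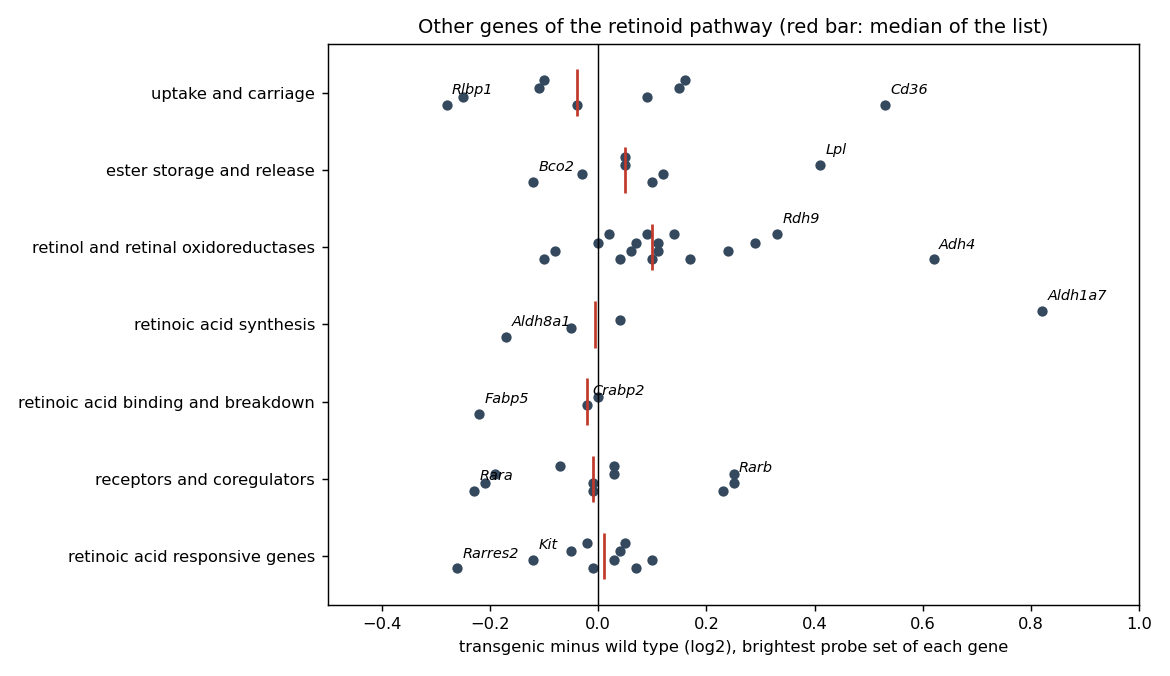
Transgenic minus wild-type difference (log2) of the 61 other pathway genes at their brightest probe set, in 7 lists by role, with a red bar at each list's median; the 2 genes of smallest p in each list are named. Aldh1a7 at 0.82, Adh4 at 0.62 and Cd36 at 0.53 lie farthest to the right, and 0 of the 61 passed the test.

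Marker lists for the cells that a testis sample can hold moved with genotype in part, and their part in these results was not tested. Array means did not overlap for 5 of 11 lists, where an exact permutation test gives p = 0.1 at best. Of all single probe sets 11.3% had no overlap, but a mean over a list is another measure, so the count is a description only. Sertoli genes averaged 8.16 to 8.27 over transgenic arrays, against 8.33 to 8.55 over wild-type arrays, but this rested on Cst9, the 1 gene of the list that passed (-2.35, limma adjusted p = 4.85e-05). Without Cst9, left out after its value was seen, the other 10 genes averaged 8.19 to 8.30 in transgenic arrays, against 8.16 to 8.36 in wild type, with overlap, and the defining Sox9 and Wt1 differed by -0.01 and -0.08. Leydig genes averaged 9.38 to 9.51 in transgenic arrays, against 8.90 to 9.21 in wild type, and this rested on 2 steroid enzyme genes, Hsd3b1 (1.48, adjusted p = 0.00109) and Hsd17b3 (0.91, adjusted p = 0.146). Without them, again left out after their values were seen, the other 4 genes averaged 9.34 to 9.47 in transgenic arrays, against 9.29 to 9.54 in wild type, with overlap, and Cyp17a1 and Cyp11a1 differed by 0.03 and -0.06. Macrophage genes were above 0 in 8 of 8 cases, averaging 7.01 to 7.08 in transgenic arrays, against 6.72 to 6.94 in wild type (Adgre1 0.17, Cd68 0.13). Endothelial genes averaged 5.59 to 5.64, against 5.43 to 5.51 (6 of 7 above 0, Pecam1 0.29, Cdh5 0.19). Of these genes Cdh5, Tek, Emcn and Tie1 were read by dim probe sets. The 1 below 0 was Vwf at -0.20, without overlap. Spermatocyte genes averaged 9.31 to 9.43, against 9.44 to 9.62 in wild type, with 8 of 10 below 0 (Sycp1 -0.41, Sycp3 -0.12). The 2 above 0 were Ldhc at 0.01 and Mybl1 at 0.71, the latter without overlap (SE 0.14, limma adjusted p = 0.0852). Without wild type replicate 2 the spermatocyte mean differed by -0.09 in place of -0.14.

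The remaining lists overlapped between the genotypes. Their mean differences were -0.04 for peritubular myoid genes (Acta2 -0.11, Myh11 -0.33), 0.00 for spermatogonia (Zbtb16 0.17, Gfra1 0.08) and -0.03 for spermatids (Acrv1 -0.07, Spaca1 -0.18). Adipose genes differed by 0.17, and by 0.07 without wild type replicate 2 (Adipoq 0.03, Fabp4 0.47). Epididymal genes differed by 0.00, and by -0.10 without that array (Lcn5 0.04, Lcn8 0.07). Of the 7 epididymal genes 6 were above 0 and 1 below, the dim Rnase10 at -0.60, without overlap (SE 0.11, limma adjusted p = 0.0647). Erythroid genes differed by 0.01 (Hba-a1 0.06, Alas2 -0.04). None of the 22 first-named markers of the 11 lists passed (limma, smallest adjusted p = 0.541), where 0.616% of all genes did. With so few genes at that share, finding none says little of the cell types.

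**Figure D4:**
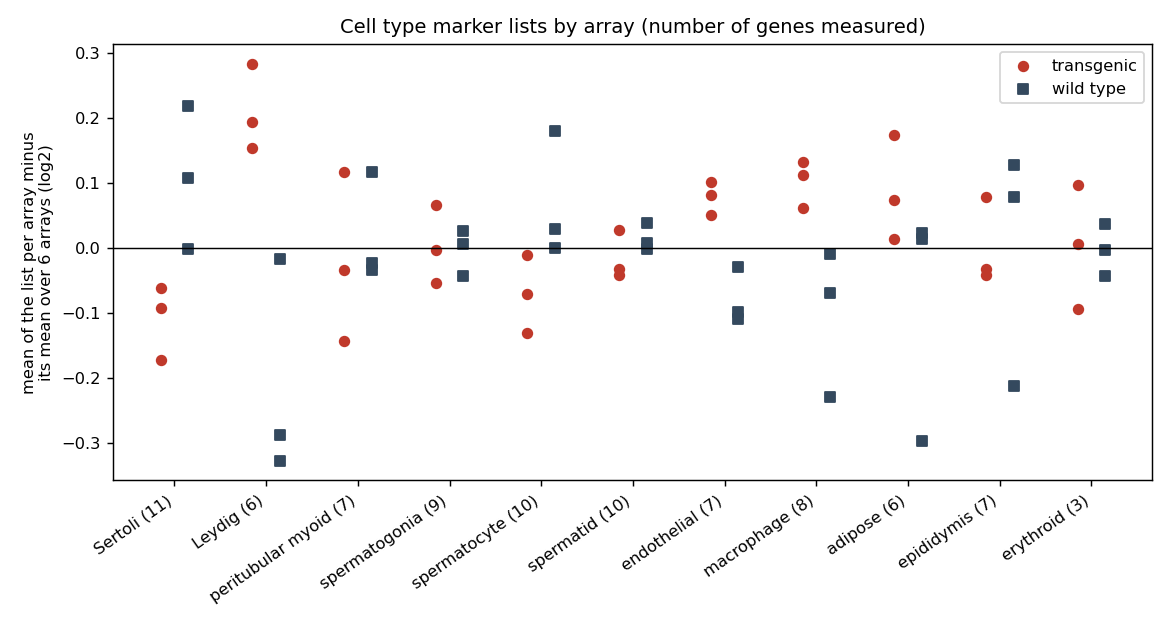
Mean log2 value of each cell type marker list in every array, minus the list's mean over the 6 arrays, for transgenic (red circles, left) and wild-type (dark squares, right) testis; the number of genes measured stands in brackets. The groups separate for Sertoli, Leydig, spermatocyte, endothelial and macrophage genes and overlap for the other lists, but without Cst9 (-2.35) the Sertoli groups overlap, and without Hsd3b1 and Hsd17b3 (1.48 and 0.91) the Leydig groups do.

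The genes next to Bco1 on chromosome 8 were read after its values had been seen, as the 8 nearest measured genes on each side in RefSeq order on GRCm38.p6. Of their 30 probe sets 2 passed, both higher in transgenic testis, where 0.444% of all probe sets passed. Gcsh, which encodes a lipoyl carrier protein of mitochondrial glycine breakdown, stands 2 measured genes away from Bco1, with Pkd1l2 between. It read 9.23, 9.11 and 9.35 in transgenic testis, against 7.80, 8.36 and 8.01 in wild type, without overlap (difference 1.17, SE 0.14, limma adjusted p = 0.00947). Cmc2, a mitochondrial protein gene of cytochrome oxidase biogenesis, read 10.03, 10.16 and 10.19 in transgenic testis, against 9.46, 9.40 and 9.41 in wild type with its brightest probe set (0.70, SE 0.09, adjusted p = 0.0112), while its 3 others read 0.35, 0.16 and 0.07 and did not pass.

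The call of Gcsh was lost on leaving out any 1 of the 3 transgenic arrays (adjusted p = 0.0755, 0.0626 and 0.0785) or wild type replicate 3 (0.0619). That of Cmc2 was lost when transgenic replicate 2 (0.092), transgenic replicate 3 (0.0842) or wild type replicate 3 (0.0852) was left out, and with the replicate number as a block (0.0687), under which Gcsh kept it (0.0298). With the Gapdh covariate neither passed (adjusted p = 0.185 for Gcsh and 0.359 for Cmc2). Pkd1l2, between Gcsh and Bco1, differed by 0.05 (SE 0.13, adjusted p = 0.983), and Cmip, next on the other side, by 0.18 and -0.03 with its 2 probe sets (adjusted p = 0.871 and 0.99). The 28 neighbouring probe sets that did not pass ran from -0.37 to 0.35, with a smallest adjusted p of 0.186. Around the other 8 retinoid genes 0 of 267 probe sets of 128 neighbouring genes passed (limma), where 0.444% of all probe sets did. At that share a count of 0 says little of these neighbours.

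**Figure D5:**
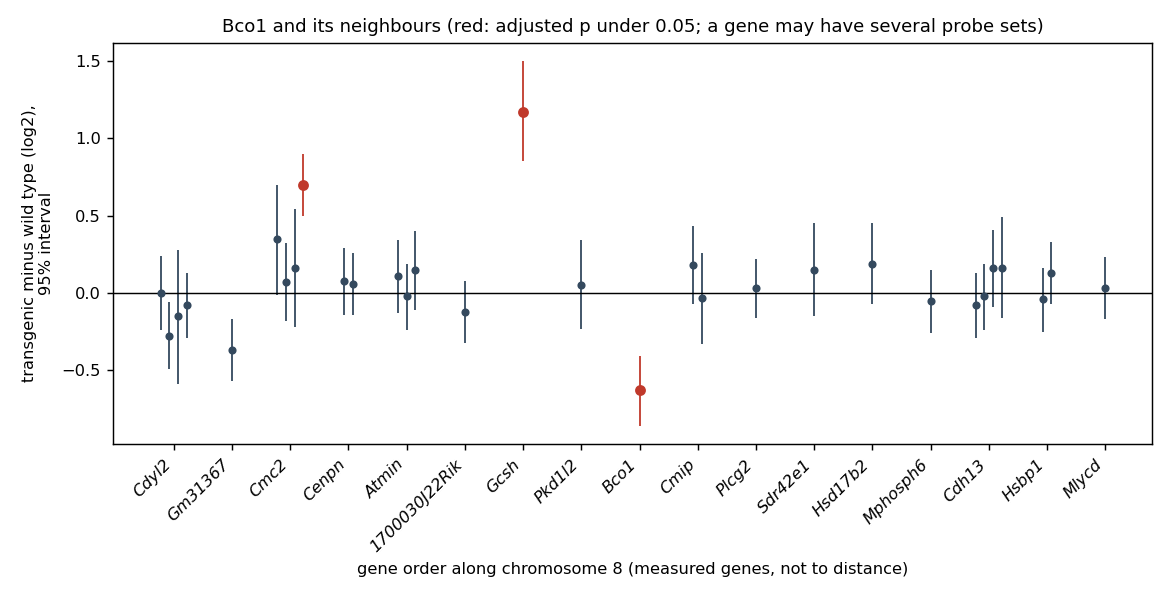
Transgenic minus wild-type difference (log2, with 95% interval) of the probe sets of Bco1 and of the 8 measured genes on either side, in order along chromosome 8 and not to distance; red points passed the test over all probe sets. Bco1 lies at -0.63, and Gcsh at 1.17 and 1 probe set of Cmc2 at 0.70 lie on the opposite side of 0.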

How the data were processed

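Values are the deposited log2 intensities of 6 arrays, to 2 decimals; the authors made them with RMA and the affy package, per the submitters' processing notes, with no version, parameters or genome build given in the sources used here. RMA brings the arrays to a near-common distribution and gives no detection call. After 64 controls were left out, 45037 probe sets were tested with limma 3.58.1 in R 4.3.3 (lmFit, eBayes, two-sided, transgenic minus wild type, Benjamini-Hochberg over all of them, threshold 0.05), with no filter on dim probe sets. The number of arrays limits the precision. Per the design text, replicates are independent biological samples.

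Platform annotation gave 1 gene for 34945 probe sets, several for 932 and none for 9160; a RefSeq table (GRCm38.p6) matched 34741 of the first and updated symbols. Gene counts use each gene's brightest single-gene probe set. Members and lists were chosen with earlier results of these data known. Named were all member probe sets, Kcnip3, the 2 genes of smallest p per pathway list where none passed, the first 2 measured markers per list, and for the 3 members of largest difference the 2 genes with the nearest profile. Stra8, the neighbours of Bco1 and the promoter repeat were named after values were seen. The fit was also run on simulated data with 200 changed probe sets. It recovered 99% of the 2-fold changes, but 10.4% of its calls were false, above the threshold of 0.05. Recovery of a change of the size of Bco1 (1.55-fold) was not tested. Same-numbered arrays did not deviate together (correlations -0.3193, -0.0651 and -0.0124), which with 3 arrays per group cannot exclude a pairing. The main fit did not use the numbers as pairs.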

Additional observations from a re-analysis of the deposited data

How the results depend on the processing

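Bco1 was lower in transgenic testis under all 13 alternatives, by -0.57 to -0.69, and passed under 6 of them. Its call was lost with the replicate number as a block (-0.63, adjusted p = 0.0857; no array's deviations matched its own number best), with the Gapdh covariate (-0.61, adjusted p = 0.381) and without 5 of 6 arrays in turn (differences -0.57 to -0.69, adjusted p over the 6 from 0.0315 to 0.183). The count of called probe sets, 200, was 117 with the replicate block, 18 with the Gapdh covariate, 306 with a trended and robust variance, 4160 with array weights, whose estimation stopped before convergence, and 70 to 429 without 1 array, the highest without wild type replicate 2. In the wider pathway, 0 genes passed, against 10 with array weights, 1 after quantile normalization again and 0 to 3 without 1 array; their median of 0.04 was 0.01 after median centring and 0.09 with the Gapdh covariate. The causes of these shifts were not tested. Of 127 values of the other 10 member probe sets under these alternatives, 0 passed (smallest adjusted p = 0.0728, Crabp1 with array weights) and 9 moved by more than the spread between replicates. Crabp1 had no value without probe sets of the kind that can match several transcripts.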

Other observations

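By root mean square distance over the 6 arrays, after each of 22043 probe sets above the 40th percentile was centred on its own mean, the profiles nearest to Bco1 were those of Lrriq4 (0.048, log2) and Pvt1 (0.052). Lrriq4 read 7.85, 7.98 and 7.86 in transgenic testis, against 8.42, 8.61 and 8.57 in wild type (-0.64, SE 0.09, limma adjusted p = 0.0239). Pvt1, a long non-coding RNA gene beside Myc, read 8.07, 8.31 and 8.23 in transgenic testis, against 8.69, 8.86 and 8.90 in wild type (-0.61, SE 0.10, adjusted p = 0.0466). Both were picked for being like Bco1, so their direction is fixed by the choice. Nearest to Crabp1 were Muc4 (0.063) and Tmem168 (0.075), in which transgenic replicate 1 was also above the other transgenic arrays. Nearest to Aldh1a1 were Plekho2 and Cpd (0.017 each), in which wild type replicate 2 was also the highest array. These genes too were picked for likeness, so the shared pattern over arrays follows from the choice.

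Besides Bco1, 12 genes had a promoter window with the same direct repeat, and 6 of these had a probe set of their own. None of the 6 passed (limma, brightest probe set), where 0.616% of all genes did. With so few genes at that share, finding none says nothing of the repeat. Their differences ran from -0.14 to 0.06, among them Isca1 at 0.00, Ranbp17 at -0.03 and Igsf23 at -0.14.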
